A study of Mus musculus with 6 samples.

Results

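Chains of closely spaced CTCF sites were examined in muscle stem cells (satellite cells). The deposited peak intervals of quiescent satellite cells (QSC) and of freshly isolated satellite cells (FISC) were merged into sites wherever they overlapped, on the 19 autosomes of the mouse build mm9. Consecutive sites were joined while the edge-to-edge gap stayed under 10 kb, and chains of 4 or more sites were kept. This gave 324 chains with 1414 sites, 4.95% of the 28551 autosomal sites. The members were chosen by the positions of the intervals in both lists, so their number, density and spacing are a description and carry no test.

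The cells came from skeletal muscle of C57BL/6 mice with the genotype Pax7-nGFP at postnatal day 38, in both states. Each state has 2 CTCF ChIP libraries and 1 input library, 6 samples in all, and a single interval list that gives positions and no height or score. The reporter name refers to Pax7, the transcription factor that marks satellite cells, and to a nuclear green fluorescent protein. Isolation is known to begin the activation of these cells, which otherwise rest between the muscle fibre and its basal lamina. Whether the 2 ChIP libraries of a state came from separate mice, the labels do not say.

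The zinc finger protein CTCF recognises a long DNA motif that has a direction. It halts the cohesin complex as cohesin extrudes chromatin loops, so CTCF sites anchor loops and mark the borders of contact domains, and the orientation of the motif matters for this. Clusters of CTCF sites are known at domain borders and at gene clusters. A peak list shows where CTCF was detected and gives neither the motif orientation nor the loops. Sequence, motif and gene annotation in mm9 were not analysed here, so the chains are named by position only.

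Each site was classed as listed in both states, QSC-only or FISC-only. A site absent from a list was not detected there under the authors' procedure, and CTCF may still have been bound. No replicate values exist for either list, so no difference between the states below has a replicate error or a test. Intervals beside shares are 95% Wilson intervals and intervals beside medians are 95% order-statistic intervals. They treat sites as independent and cover counting error only, and neighbouring sites share their region and their libraries.

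Most chains were short. There were 232 chains of 4 sites, 70 of 5, 18 of 6 and 4 of 7. The chains spanned a median of 14.8 kb from the first to the last base, with quartiles of 11.3 and 19.3 kb and a range from 3.49 to 43.2 kb. Together they covered 4.99 Mb, of which 11.7% lay under listed intervals. Inside the chains, the 1090 gaps had a median of 3584 bp, with quartiles of 1505.5 and 6327 bp. Of these gaps 212 (19.4%) were under 1 kb and 104 (9.54%) under 500 bp, distances at which 1 broad region of signal and several separate sites cannot be told apart from intervals alone.

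The limit of 10 kb did not fall at a break in the spacing of the sites. Over all 28532 gaps between neighbouring autosomal sites the median was 40.3 kb, and 5790 gaps (20.3%) were under 10 kb. Just inside the limit, 403 gaps measured 9 to 10 kb, and just outside it 386 measured 10 to 11 kb. The nearest gaps on either side were 9999 and 10002 bp. Of the chains, 62 were held together by at least 1 gap of 9 kb or more. With a limit of 9 kb there were 282 chains of 4 or more, and with 11 kb there were 377. The chains are thus the dense end of a continuous range of spacing.

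**Figure D1:**
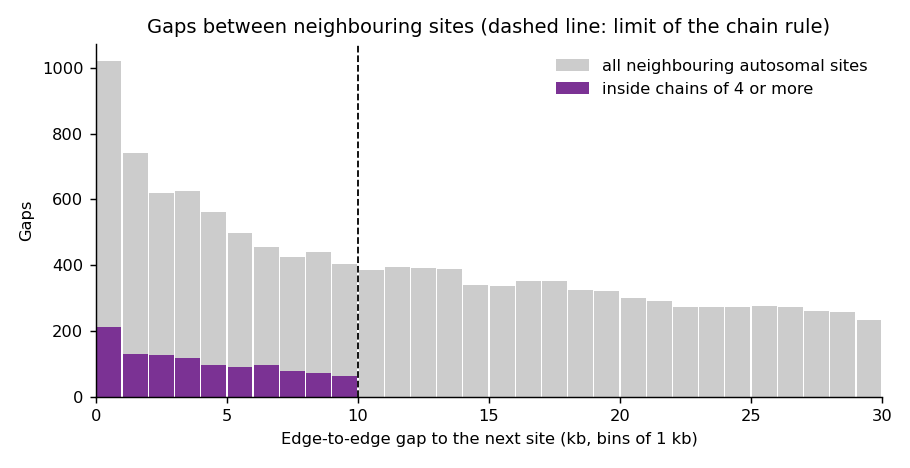
Edge-to-edge gaps in kb between neighbouring autosomal CTCF sites, in bins of 1 kb, with the number of gaps on the vertical axis. Grey bars are all neighbouring sites, purple bars are the gaps inside chains of 4 or more, and the dashed line is the limit of 10 kb. The grey bars stand at 1021 gaps in the first bin, at 742 in the next, and at 403 and 386 on either side of the limit.

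Sites listed in both states were more frequent in the chains than among all autosomal sites, and QSC-only sites were less frequent. Of the 1414 members, 522 (36.9%, 34.4 to 39.5) were listed in both states, against a background of 25.3% over all 28551 autosomal sites. FISC-only sites made up 553 members (39.1%, 36.6 to 41.7), against 34.7% of all sites. QSC-only sites made up 339 members (24.0%, 21.8 to 26.3), against 40.1% of all sites. In the wider 50% of each list the difference for sites in both lists was smaller, 3.45 percentage points above all sites in place of 11.7. Since the positions in both lists chose the chains, these shares are read as a description of where the classes lie.

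Most of this difference was already present between lone sites and groups of 2 or 3. Among the 18497 sites with no neighbour within 10 kb, 21.3% were listed in both states, 46.7% were QSC-only and 32.0% FISC-only. Among the 8640 sites in groups of 2 or 3 the shares were 31.8%, 28.4% and 39.8%. Groups of 3, just under the limit for a chain, had 32.8% listed in both, 25.2% QSC-only and 42.0% FISC-only, and chains of exactly 4 had 37.3%, 22.7% and 40.0%. The share listed in both was 37.4% in chains of 5, 30.6% (22.7 to 39.8) in chains of 6 and 42.9% (26.5 to 60.9) in chains of 7. The intervals of chains of 4, 5, 6 and 7 overlapped for each class, so no further trend with chain length was detectable.

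**Figure D2:**
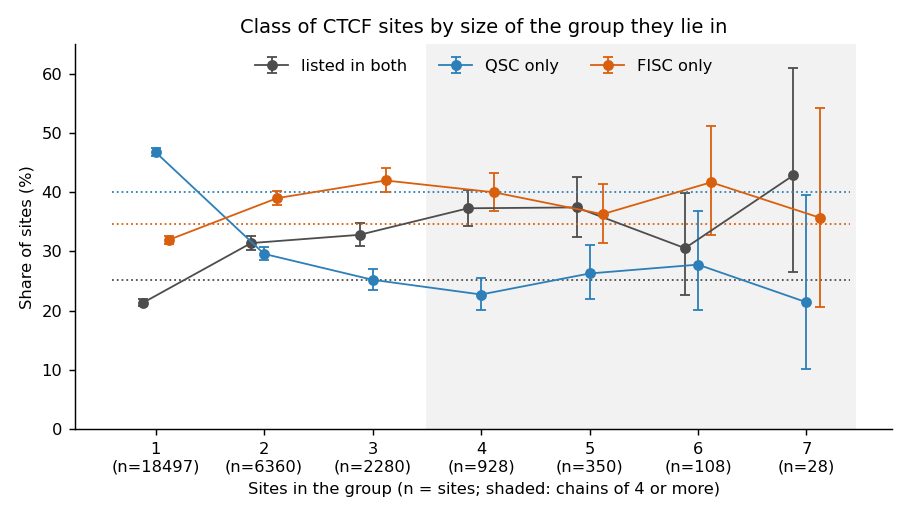
Share of sites in percent that were listed in both states, QSC-only or FISC-only, by the number of sites in the group. Error bars are 95% Wilson intervals, dotted lines are the shares over all autosomal sites, and the shaded area holds the chains. The QSC-only share falls from 46.7% of lone sites to 22.7% in chains of 4, and the intervals widen where few sites remain.

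Counted by list, the chains held 863 QSC intervals, 4.62% (4.33 to 4.93) of the 18669 autosomal QSC intervals, and 1076 FISC intervals, 6.28% (5.93 to 6.66) of the 17124 autosomal FISC intervals. A member listed in QSC had a FISC partner more often than lone QSC sites did. The shares were 60.6% (57.3 to 63.8) of 861 members and 31.3% (30.5 to 32.1) of 12587 lone sites. Groups of 2 or 3 lay between, at 52.8% (51.4 to 54.1), and groups of 3 alone were at 56.5% (53.9 to 59.2). For members listed in FISC the step from lone sites was smaller, with 48.6% (45.6 to 51.5) of 1075 against 40.0% (39.0 to 41.0) of 9852. Groups of 2 or 3 were at 44.4% (43.2 to 45.7) by this measure. Among members listed in 1 state only, 62.0% (58.8 to 65.1) were FISC-only, against 46.4% of all autosomal state-only sites and 40.6% of the lone ones. This lean was not particular to the chains. The FISC-only share was 62.5% (60.0 to 64.9) in groups of 3 and 58.3% (57.0 to 59.6) in groups of 2 or 3.

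Nearly all chains mixed classes. Of the 324 chains, 276 held at least 1 site listed in both states, 135 held all 3 classes, 177 held 2 classes and 12 a single class. Of the members, 36.9% were in both lists, 24.0% QSC-only and 39.1% FISC-only. The counts of chains by makeup, here and below, were not tested against what these shares alone would give. FISC-only sites outnumbered QSC-only sites in 180 chains, the reverse was true in 95, and 49 had equal numbers. Chains of sites in both lists plus FISC-only sites, with no QSC-only site, numbered 103. The opposite kind, with QSC-only and no FISC-only sites, numbered 33. The most frequent makeup was 1 site in both lists, 1 QSC-only and 2 FISC-only sites, found in 33 chains, followed by 2 in both lists with 2 FISC-only sites, found in 32.

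All sites of a chain were listed in FISC in 115 chains and in QSC in 38. At most 1 site was listed in QSC in 49 chains, and at most 1 was listed in FISC in 14. In 7 chains no site was listed in QSC, and no chain lacked FISC sites altogether. The median chain still held 3 sites listed in each state.

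Chains were also built from each list alone, to show how many chains need both lists. Joining the lists raises the density of sites, which favours chains by construction. By the same rule the QSC list alone gave 60 chains with 257 sites, 1.38% (1.22 to 1.55) of its autosomal intervals. The FISC list alone gave 144 chains with 610 sites, 3.56% (3.29 to 3.85) of its intervals. The longest chain had 6 sites in QSC and 7 in FISC. Of the 324 merged chains, 130 contained a chain built from the FISC list and none built from the QSC list, 46 the reverse, and 14 contained one of each. These 14 are 23.3% of the chains with a QSC chain and 9.72% of those with a FISC chain. The remaining 134 chains (41.4%) reached 4 sites only when both lists were joined.

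The 4 chains of 7 sites lay on chromosomes 4, 5 and 15. The first, at chr4:151493512-151514997, spanned 21.5 kb. Its sites listed in both states were the third, with 287 bp in QSC and 345 bp in FISC, and the sixth, with 392 and 507 bp. A QSC-only site of 278 bp lay second, and FISC-only sites of 355, 262, 506 and 350 bp held the remaining places, including both ends. The gaps ran from 1407 to 6055 bp. FISC thus listed all sites of this chain but one.

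The chain at chr5:115988679-116019418 spanned 30.7 kb and had 3 QSC-only sites, of 251, 422 and 260 bp. At its centre lay a pair of sites listed in both states, 2317 bp apart, with widths of 495 and 566 bp in QSC and 523 and 561 bp in FISC. FISC-only sites of 307 and 317 bp lay first and sixth. The pair in both lists was wider than every state-only site around it.

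Chromosome 15 held the other two chains of 7, under 500 kb apart. The one at chr15:102565538-102592614 spanned 27.1 kb and had 4 sites listed in both states, in a pair on each side of 2 QSC-only sites of 295 and 330 bp. The widths of these 4 sites were 373, 639, 352 and 272 bp in QSC and 339, 469, 456 and 386 bp in FISC. A single FISC-only site of 331 bp opened the chain. The one at chr15:102995819-103021811 spanned 26.0 kb and also had 4 sites in both lists, with 385, 312, 626 and 515 bp in QSC and 370, 324, 375 and 532 bp in FISC. Its other 3 sites were FISC-only, with 446, 537 and 270 bp, and no site was QSC-only. The first chain was therefore listed almost whole in QSC, the second whole in FISC.

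The 18 chains of 6 sites spanned 16.9 to 43.2 kb, with a median of 23.1 kb. FISC-only sites outnumbered QSC-only sites in 11 of them, the reverse held in 6, and 1 was even. Each had at least 1 FISC-only site, and 17 had at least 1 site in both lists. Chromosomes 5, 11 and 15 had 3 each. Those on chromosome 5 lay at chr5:121051304-121071121, chr5:123582672-123607098 and chr5:123685687-123718767. Those on chromosome 11 lay at chr11:74978769-74996144, chr11:85636650-85662952 and chr11:98635078-98657433. Those on chromosome 15 lay at chr15:85954233-85971156, chr15:99532263-99556079 and chr15:103136227-103154771.

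Chromosome 1 had a pair of chains of 6, at chr1:88386877-88406377 and chr1:169567135-169610313. The second was the longest of all chains in bases, 43.2 kb, with gaps of 6012 to 9688 bp. It began with a FISC-only site of 437 bp and a site in both lists (327 bp in QSC, 440 bp in FISC), and ended in 4 QSC-only sites of 253, 308, 315 and 267 bp. The remaining 7 chains of 6 lay at chr3:52046345-52068060, chr6:70741979-70762234, chr7:17498871-17522982, chr12:112697630-112721981, chr13:93499982-93525905, chr14:70580831-70606560 and chr19:3575986-3596062. The chains of 6 on chromosomes 12, 13, 14 and 19 had more QSC-only than FISC-only sites, with 3 QSC-only sites each.

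**Figure D3:**
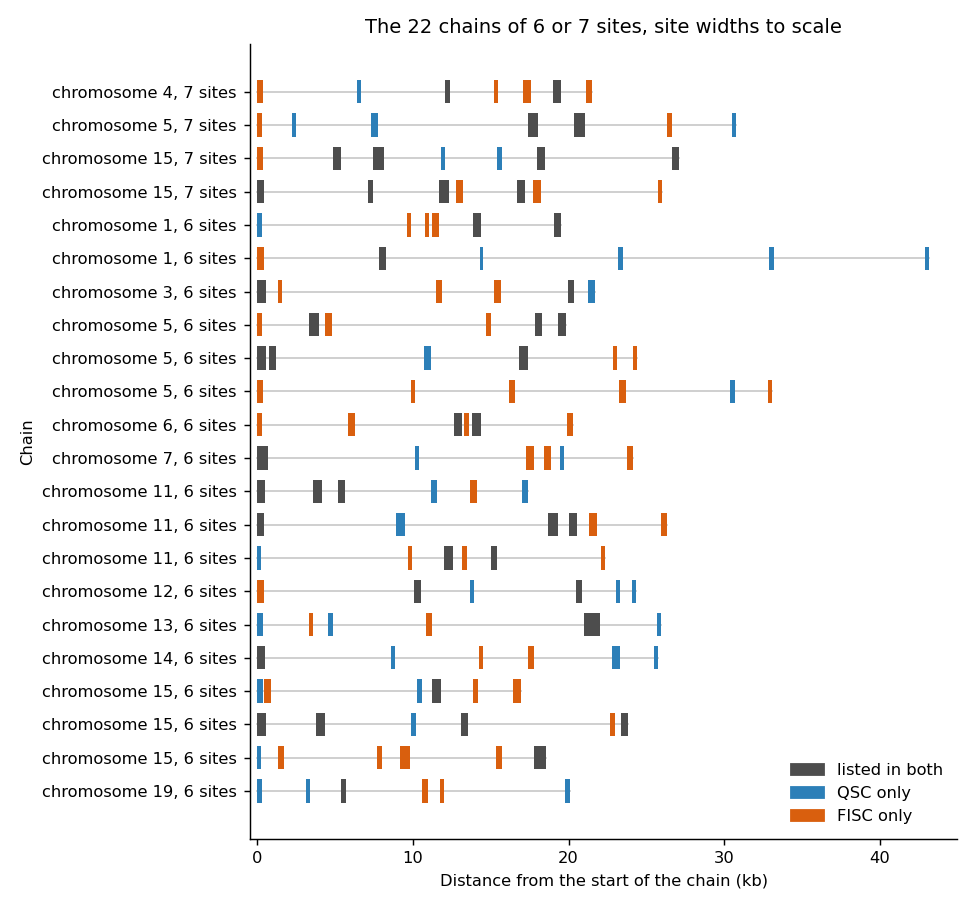
Layout of the 22 chains of 6 or 7 sites, 1 row per chain, with the distance from the start of the chain in kb on the horizontal axis. Blocks are sites at their true width, in grey where listed in both states, blue where QSC-only and orange where FISC-only. Most rows hold sites of all 3 classes, and the second row of chromosome 1 reaches 43.2 kb with 4 QSC-only sites at its end.

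A few chains were listed in the same way from end to end. In 5 chains every site was listed in both states. The longest of these, at chr9:120491737-120512417, had 5 sites over 20.7 kb, with widths of 296, 575, 381, 336 and 422 bp in QSC and 379, 457, 498, 518 and 471 bp in FISC. The other 4 had 4 sites each, at chr2:32709528-32720684, chr6:128789504-128804433, chr10:24341401-24351016 and chr19:24339372-24359510. Another 6 chains had 4 sites in both lists beside state-only ones. They were both chains of 7 on chromosome 15, the chain of 6 at chr15:99532263-99556079, and chains of 5 at chr2:167500669-167514536, chr11:102292197-102309176 and on chromosome 18.

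Chains made of FISC-only sites alone numbered 7, and no chain was made of QSC-only sites alone. FISC-only sites were also the more frequent among members, at 39.1% against 24.0%, and the counts were not tested against these shares. The longest FISC-only chain, at chr16:20702610-20724907, had 5 sites of 313, 392, 310, 618 and 319 bp over 22.3 kb. Chromosome 4 had 3 chains of 4 FISC-only sites. The pair at chr4:137391976-137413430 and chr4:137508780-137524486 lay under 100 kb apart, with widths of 323, 304, 315 and 344 bp and of 326, 408, 383 and 353 bp. The third, at chr4:94716715-94720208, was the shortest of all chains, with sites of 299, 311, 386 and 280 bp within 3.49 kb. The others lay at chr2:30783730-30798585, chr7:120394225-120412167 and chr15:79907235-79921949. All but 1 of the intervals in these 7 chains were at most 500 bp wide, and the widest had 618 bp, beside a median of 344.5 bp over all autosomal FISC-only sites.

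In 41 chains QSC-only and FISC-only sites lay together with no site listed in both. Of these, 11 had 5 or 6 sites, and in 7 of the 11 the sites of each state formed a block, with a single switch from one state to the other along the chain. Among the 30 with 4 sites, 10 had a single switch. This count was chosen after the order of the sites was seen. In chains of so few sites, part of the possible orders have a single switch from the makeup alone, a share that differs with the makeup. The counts were not tested against that share. Most of the chains of 4 sites lacked the block order. The chains named below are examples, and no preference for or against blocks can be read from them. At chr9:77589074-77604172, 3 QSC-only sites of 334, 250 and 324 bp were followed by 2 FISC-only sites of 385 and 276 bp. At chr14:98436250-98455991, 2 FISC-only sites of 324 and 369 bp came before 3 QSC-only sites of 294, 291 and 272 bp. At chr2:74521842-74540584, 4 QSC-only sites of 293, 403, 272 and 546 bp were followed by a FISC-only site of 399 bp.

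The block order was also found at chr4:139383993-139396909, chr4:143278820-143286915, chr11:54785613-54812165 and chr13:64407445-64414701. The chains at chr5:134961751-134970603, chr6:69137952-69167221 and chr15:85061934-85097632 and the chain of 6 at chr5:123685687-123718767 switched more than once. In the last one a QSC-only site of 324 bp interrupted 5 FISC-only sites of 376, 273, 386, 483 and 259 bp.

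The shortest chains showed how closely sites of different class can lie. After the FISC-only chain on chromosome 4, the shortest chains of 4 were at chr7:53630506-53634722 with 4.22 kb and at chr7:7248270-7252533 with 4.26 kb. The first had QSC-only sites of 267 and 283 bp followed by 2 sites in both lists, of 419 and 330 bp in QSC and 357 and 362 bp in FISC. The second had a FISC-only site of 375 bp, QSC-only sites of 286 and 373 bp and a site in both lists, with gaps of 2358, 221 and 170 bp. Where intervals of the states lie this close without touching, the class depends on the overlap rule.

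Along the chains, neighbours more often differed in class than not, with 706 mixed and 384 equal pairs (35.2%) among 1090. Equal pairs made up 36.6% of 4700 neighbours in groups of 2 or 3 and 40.8% of 22742 neighbours at least 10 kb apart. Pairs of a site in both lists and a FISC-only site were the most frequent, with 330 (30.3%). Pairs of a site in both lists and a QSC-only site numbered 193, pairs of a QSC-only and a FISC-only site 183, FISC-only pairs 166, pairs in both lists 146 and QSC-only pairs 72. The numbers of members per class also differ, and the pair counts were not tested against them. A site in both lists lay directly beside 280 of the 553 FISC-only members (50.6%, 46.5 to 54.8) and 159 of the 339 QSC-only members (46.9%, 41.7 to 52.2), 2 shares with overlapping intervals.

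The median gap differed little between the kinds of pair. It ran from 3449 bp, between a site in both lists and a FISC-only site, to 4230.5 bp between QSC-only sites, with quartiles that overlapped widely. The share of gaps under 1 kb ran from 16.3% for FISC-only pairs to 23.0% for a QSC-only beside a FISC-only site. Of the 183 pairs of that last kind, 22 were under 500 bp apart and 6 under 100 bp. At chr15:85954233-85971156 a QSC-only site of 368 bp and a FISC-only site of 455 bp were separated by 33 bp.

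The first and last sites of a chain had about the same classes as the inner sites. Among 648 end sites 35.3% (31.8 to 39.1) were listed in both, 24.4% were QSC-only and 40.3% FISC-only. Among 766 inner sites the shares were 38.3% (34.9 to 41.7), 23.6% and 38.1%. The intervals overlapped for every class.

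The width of an interval entered the rule through the edges of the gaps and through the overlap that merges intervals and sets the class. A wider interval overlaps one of the other list more easily, so width differences between classes are not independent of the class. Width is the one other readout the lists hold. Members had somewhat larger median widths than lone sites in each class. At members in both lists the QSC interval had a median of 368 bp (355 to 383), against 355 bp (351 to 359) at lone sites in both lists. The FISC interval had a median of 428 bp (417 to 438) against 407 bp (402 to 410), the largest of the 4 differences and the one whose intervals did not overlap. QSC-only members had a median of 297 bp (291 to 308) against 291 bp (290 to 293) at lone sites. FISC-only members had 353 bp (340 to 362) against 339 bp (337 to 342). Groups of 2 or 3 had intervals that overlapped those of the members in each case. By median these groups were nearer the members for QSC intervals at sites in both lists and for FISC-only sites. In the other cases they were nearer the lone sites. Their medians were 363.5 and 416 bp for QSC and FISC intervals at sites in both lists. At QSC-only and FISC-only sites they were 293 and 354 bp. For single intervals the quartiles were 303 and 458 bp at QSC intervals of members in both lists.

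Wide intervals were more frequent in the chains than at lone sites, along with the larger share of sites in both lists. The widest 10% of the QSC list began at 471 bp, and 15.1% (12.8 to 17.6) of QSC intervals in chains were in it, against 8.48% (8.002 to 8.97) at lone sites. In the FISC list it began at 519 bp and held 13.01% (11.1 to 15.2) of the intervals in chains and 8.91% (8.37 to 9.49) at lone sites. Within classes the shares lay as follows. At sites in both lists, 21.2% of QSC intervals in chains and 19.4% at lone sites were that wide. For FISC intervals at such sites it was 20.7% in chains and 15.0% at lone sites, a larger difference than over all FISC intervals. At state-only sites it was 5.60% in chains and 3.47% at lone sites in QSC, and 5.79% and 4.82% in FISC.

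**Figure D4:**
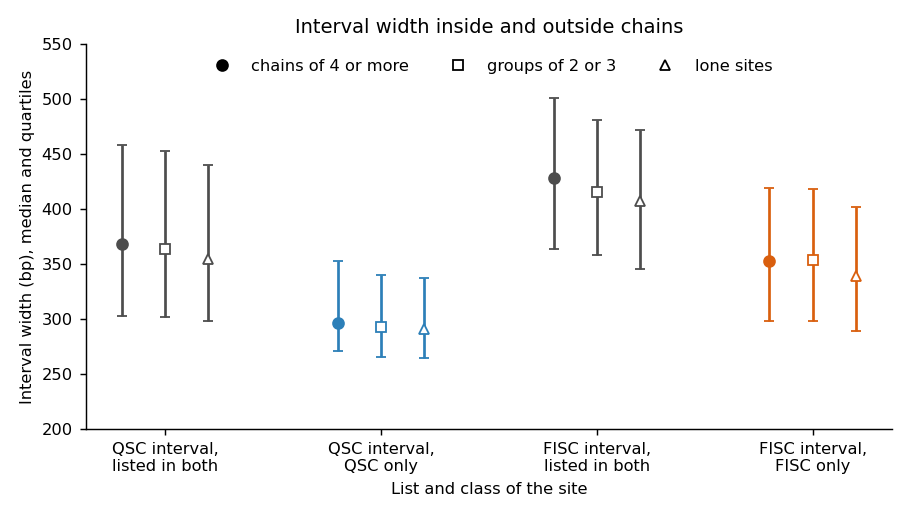
Interval width in bp by list and class, as the median with the quartiles as bars, for chains of 4 or more (filled circles), groups of 2 or 3 (open squares) and lone sites (open triangles). The vertical axis begins above 0. Class separates the medians more than the chain does, with 368 and 297 bp for QSC intervals in chains at sites in both lists and at QSC-only sites. Width also affects the overlap that sets the class.

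Within a chain, the widest interval usually belonged to a site in both lists. Of the 168 chains that had QSC intervals of both kinds, the widest lay at a site in both lists in 135 (80.4%), where such sites gave 53.1% of the intervals. For FISC intervals it was 158 of 238 chains (66.4%), where such sites gave 49.0%. Sites in both lists are wider in these data as a whole, so this order is not particular to the chains. A wider interval also overlaps one of the other list more easily, so the order is partly built into the class.

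At members in both lists with a single interval from each state, 519 of 522, the 2 intervals matched as elsewhere. Their midpoints lay a median of 57 bp apart (51.5 to 63), against 53.5 bp (52.0 to 55.5) at the 6660 such sites outside the chains, and 75.1% were within 100 bp against 75.9%. The FISC interval was the wider at 63.6% (59.4 to 67.6) of members and 63.7% of the others. The median log2 ratio of FISC to QSC width was 0.20 (0.16 to 0.27) in members and 0.16 (0.15 to 0.18) outside, with overlapping intervals.

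The chains were spread unevenly over the autosomes. Chromosome 11 held 39 chains and 175 members, 8.78% (7.61 to 10.1) of its sites, and chromosome 15 held 22 chains and 105 members, 8.27% (6.88 to 9.91). Chromosome 4 followed with 6.95% and chromosome 7 with 6.30%. The lowest shares were on chromosome 18, with 2.70% (1.83 to 3.95) in 6 chains, chromosome 3, with 2.71% (2.01 to 3.65) in 10 chains, and chromosome 6, with 2.97%. Sites were also closest together on chromosome 11 as a whole, with a median gap of 27.4 kb, against 53.5 kb on chromosome 3 and 53.0 kb on chromosome 18. Chromosome 19 had a median gap of 31.5 kb with 4.41% of its sites in chains, so the order of the chromosomes by median gap and by chains was not the same.

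A like class makeup was seen on most chromosomes, which come from the same 2 lists and are not replicates. The share listed in both states was higher among members than among all sites of the same chromosome on 19 of 19 autosomes, from 28.9% on chromosome 13 to 51.5% on chromosome 10. FISC-only members outnumbered QSC-only members on 16 of 19, against 2 of 19 for all sites, chromosomes 11 and 19. The exceptions among members were chromosome 3, with 15 QSC-only and 11 FISC-only, chromosome 13, with 17 and 15, and chromosome 14, with 18 and 15. Chromosome 18 had 1 QSC-only and 12 FISC-only members, and chromosome 11 had 43 and 70. Chromosome 7, counted among the 16, was nearly even with 41 and 42.

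**Figure D5:**
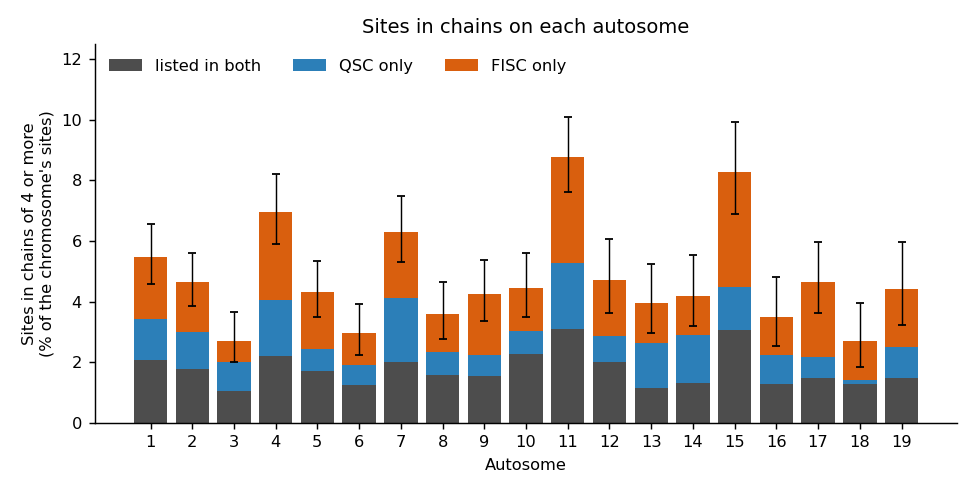
Sites in chains of 4 or more as a percentage of all sites of each autosome, split by class, with 95% Wilson intervals for the total. Chromosomes 11 and 15 reach 8.78% and 8.27%, and chromosomes 3 and 18 stay at 2.71% and 2.70%.

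Chains tended to lie in regions where sites were dense beyond the chain itself. From the ends of the chains the next outside site was a median of 39.4 kb away, with quartiles of 19.2 and 77.0 kb, where all gaps of 10 kb or more had a median of 57.8 kb. In 144 chains the nearest outside site was under 20 kb away, and in 10 it was 100 kb away or more, at most 139.5 kb. The gap between consecutive chains of a chromosome had a median of 1.64 Mb and reached 41.8 Mb. It was under 1 Mb in 120 of 305 cases and under 100 kb in 17.

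Windows of 1 Mb with a chain, by the chain's midpoint, numbered 263, and 218 of them had a single chain, 33 had 2 and 12 had 3 or more. Chromosome 4 at 151 to 152 Mb had 5 chains with 25 sites, 9 in both lists, 4 QSC-only and 12 FISC-only. Chromosome 10 at 80 to 81 Mb had 4 chains with 16 sites, of which 8, 3 and 5 were in these classes, and chromosome 15 at 98 to 99 Mb had 4 chains with 17 sites, of which 5, 3 and 9 were. At 137 to 138 Mb of chromosome 4, 3 chains held 10 FISC-only sites, 2 in both lists and no QSC-only site. The opposite balance was seen on chromosome 11 (102 to 103 Mb) and chromosome 14 (55 to 56 Mb), each with 6 QSC-only and 2 FISC-only sites in 3 chains.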

How the data were processed

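The authors deposited 1 interval list per state, 2 lists in all, as chromosome, start and end. The samples were 2 CTCF ChIP libraries and 1 input library for each of QSC and FISC. Per the submitters' processing notes the build is mm9, and HOMER, MACS2, Picard and Bowtie2 2.2.3 are named without their roles. How ChIP and input libraries were combined, and at which threshold peaks were kept, is not given in the sources used here. Depth is unknown, since the lists hold no counts, so its part in the number of listed sites and chains was not tested.

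Intervals were merged into sites where they overlapped by at least 1 bp, and chained in Python 3.11.15 (scipy 1.17.1, numpy 2.4.6). Coordinates count from 1. The numbers of sites and chains were the same with bedtools 2.31.1, and the procedure was tested on simulated data with planted chains. Shares carry 95% Wilson intervals and medians 95% order-statistic intervals. The members, lists and comparisons were chosen with earlier results of these data known. Chains were named by a rule: the chains with the most sites (5 and ties with the fifth), those with the most sites in both lists, the longest with none and the longest of 1 state-only class (3 and ties each), the longest span and the 3 shortest spans of 4 sites. Alternatives changed the gap, the chain length, the merging distance, the lists and the chromosomes.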

Additional observations from a re-analysis of the deposited data

Results flagged for a closer look

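The X chromosome lies outside the autosomal rule but carried chains when the same steps were applied to it. There were 4 chains with 26 of its 1028 sites (2.53%), a lower share than the 4.95% over all autosomes. This share lay within the interval of chromosome 18, the lowest of the autosomes, at 2.70% (1.83 to 3.95). The X chains are given here because the comparisons above leave out the X chromosome. Their sites were 12 in both lists, 4 QSC-only and 10 FISC-only. The longest, at chrX:47950234-47976638, had 11 sites within 26.4 kb, of which 3 were in both lists and 8 FISC-only, more sites than any autosomal chain. A chain of 5 sites, 3 in both lists and 2 QSC-only, lay next to it at chrX:47919596-47937221. The other chains, of 5 sites each, were at chrX:34347935-34373679 and chrX:166416430-166432362.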

How the results depend on the processing

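Of the 228 recomputed values 202 stayed within set limits and 26 moved, and none changed direction. The limits were 1.5 times for counts and for differences from all sites, and the 95% interval for shares and medians. Most of the 228 values came from leaving out 1 autosome, where none moved, so the tally overstates stability. In the other settings, the numbers of chains and members stayed within limits only with intervals within 500 bp merged, at 256 and 1109. The number of chains, 324, became 92 with gaps under 5 kb, 892 under 20 kb, 1084 with 3 or more sites, 92 with 5 or more, 192 with intervals within 1 kb merged, 62 in the wider 50% of each list, 60 from the QSC list and 144 from the FISC list. The number of members, 1414, became 386, 4292, 3694, 486, 827, 264, 257 and 610 in the same order. The share in both lists was 34.4% with 3 or more sites, 39.8% with intervals within 1 kb merged and 28.0% in the wider 50%, where its excess over all sites fell from 11.7 to 3.45 percentage points. The QSC-only share was 26.3% with 5 or more sites and 29.5% in the wider 50%, and the FISC-only share 42.4% there. FISC-only sites were 58.7% of state-only members with 5 or more sites. With gaps under 5 kb the median widths at sites in both lists were 354.5 bp in QSC and 415 bp in FISC. Fewer sites enter the chains in the stricter settings by construction; the cause of the other changes was not tested. Leaving out each autosome gave 285 to 318 chains and a share in both lists of 36.2% to 37.4%. A stricter calling threshold was not tried for lack of a score, and annotation and motifs were not analysed here. No paired analysis was possible because the replicates of a state share 1 list, which also means that none could be left out. Depth is unknown, which limits every statement on sites in 1 list.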
